A study of Mus musculus with 13 samples.

Results

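The Wnt pathway genes described here are 37 of the 15486 protein-coding genes that the deposited annotation tables name as nearest to a peak. They were chosen by name: every gene starting with Wnt, Fzd, Axin, Tcf7, Dkk, Sfrp, Rspo or Lgr followed by a further letter or digit, together with Lrp5, Lrp6, Apc and Ctnnb1. Lef1 was also on the list and was not named in these tables. A peak was counted for a gene when its deposited distance to that gene's transcription start was 100000 bp or less, and 35 of the 37 genes had such a peak in at least 1 library. The members comprised 13 ligands, 10 receptors and co-receptors, 2 secreted agonists, 6 secreted inhibitors, 4 proteins of the β-catenin destruction complex with β-catenin itself, and 2 nuclear factors. Fzd1 and Lgr5 were named only for peaks farther away.

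The peaks come from chromatin immunoprecipitation and sequencing (ChIP-seq) in LβT2 cells, a mouse pituitary tumour line of the gonadotrope type, which carried a lentiviral cassette for doxycycline-inducible FLAG-tagged FOXL2 and for constitutive GFP. All cells, vehicle groups included, recovered for 24 h, received doxycycline for 48 h and were kept for 2 h in 2% serum. They then received, for 1 h, either vehicle or activin A at 1 nM, a ligand whose receptors activate SMAD2 and SMAD3. SMAD2/3, FLAG-FOXL2 (a forkhead factor, here called FOXL2) and the acetylated lysine 27 of histone H3 (H3K27ac, which marks active enhancers and promoters) were each precipitated from 2 vehicle and 2 activin samples, each sample pooled from 3 plates. The FOXL2 measured is the induced, tagged protein, and the labels do not say whether the line is a single clone. They do not say either that the duplicates came from separate cultures, so the p-values below measure only the spread between these samples.

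Wnt ligands are secreted glycoproteins that bind Frizzled receptors and the co-receptors LRP5 and LRP6. Without ligand, a complex of APC and the AXIN scaffolds has β-catenin, the product of Ctnnb1, degraded; with ligand, β-catenin accumulates and acts in the nucleus with the TCF/LEF factors. R-spondins, acting through LGR receptors, raise the amount of Frizzled at the cell surface, and DKK and SFRP proteins restrain signalling from outside the cell. In gonadotropes β-catenin is known as a co-activator in gonadotropin gene expression.

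The number of reads per library is unknown, and list lengths stand in its place: the vehicle SMAD2/3 lists contained 605 and 144 peaks and those of activin 7784 and 5970, the FOXL2 lists 83834 to 97701 peaks, and the H3K27ac lists 38995 to 41763. As a check of the cell type, H3K27ac peaks overlapping an annotated start within 1000 bp were counted. In all 4 libraries they did so at 6 of 7 gonadotrope markers (Cga, Lhb, Gnrhr, Nr5a1, Foxl2 and Pitx1, not Fshb). They did so at none of the 4 markers of other pituitary lineages whose start could be placed (Prl, Tshb, Pomc and Pou1f1). The background by this rule was 60.6% of protein-coding genes. By peak centre within 1000 bp of the start, the corresponding counts were 2 of 7 and 0 of 6, with a background of 34.3%.

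Few Wnt pathway genes carried acetylated starts, and 4 promoters are shown because peaks of at least 3 libraries overlapped the 250 bases before the RefSeq start there. They were taken from the 23 members for which a RefSeq window was at hand, so other members with peaks at their start, such as Fzd3 and Lrp5, are named only. In build GRCm38.p6 they are Fzd4 at chr7:89404116-89404365 on the plus strand, Lgr4 at chr2:109917397-109917646 on the plus strand, Wnt5b at chr6:119544348-119544597 on the minus strand and Axin2 at chr11:108920099-108920348 on the plus strand. Each is written 5′ to 3′ in lower case, and capitals mark the SMAD box CAGAC on either strand (GTCTG on the other).
Fzd4: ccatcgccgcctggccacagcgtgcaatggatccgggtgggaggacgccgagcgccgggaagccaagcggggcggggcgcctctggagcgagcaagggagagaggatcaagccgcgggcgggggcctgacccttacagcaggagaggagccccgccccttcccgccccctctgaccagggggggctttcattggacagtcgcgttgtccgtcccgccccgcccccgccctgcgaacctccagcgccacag
Lgr4: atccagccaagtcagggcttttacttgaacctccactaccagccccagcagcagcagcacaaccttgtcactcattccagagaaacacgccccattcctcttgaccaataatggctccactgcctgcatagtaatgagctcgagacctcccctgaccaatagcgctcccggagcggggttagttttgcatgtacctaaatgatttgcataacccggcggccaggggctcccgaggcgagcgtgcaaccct
Wnt5b: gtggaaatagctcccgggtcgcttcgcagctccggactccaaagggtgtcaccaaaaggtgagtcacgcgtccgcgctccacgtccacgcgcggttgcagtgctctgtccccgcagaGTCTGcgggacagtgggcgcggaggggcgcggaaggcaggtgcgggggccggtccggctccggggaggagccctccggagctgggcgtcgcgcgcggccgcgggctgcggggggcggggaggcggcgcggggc
Axin2: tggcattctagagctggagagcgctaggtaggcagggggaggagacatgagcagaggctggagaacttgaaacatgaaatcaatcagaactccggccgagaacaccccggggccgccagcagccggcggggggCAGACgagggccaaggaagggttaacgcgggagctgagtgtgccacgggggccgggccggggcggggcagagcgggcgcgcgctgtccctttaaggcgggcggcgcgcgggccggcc
The Fzd4 window was overlapped by H3K27ac peaks in all 4 libraries, and the Lgr4 window by FOXL2 peaks in all 4 and by H3K27ac in 3. These FOXL2 peaks were weak, of 4.09 and 4.9-fold with vehicle, against 3.5 and 3.2-fold with activin. The Wnt5b window was overlapped by H3K27ac in both activin libraries and in vehicle replicate 1, and the Axin2 window by H3K27ac in both activin libraries and in vehicle replicate 2. The windows of Wnt5b and Axin2 each held 1 SMAD box, and those of Fzd4 and Lgr4 held none. Of 28 RefSeq promoter windows available for 23 members, 10 held CAGAC, against 42.2% of all 32851 mouse windows. The forkhead motif GTAAACA was in 0 of the 28 (3.17% of all), and the TCF/LEF motif CTTTGAT in 2 (3.21% of all), each searched on both strands.

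By the peak centre, H3K27ac lay within 1000 bp of the start in all 4 libraries at 5 of 37 members (13.5%; background 34.3% of protein-coding genes): the receptors Fzd3, Fzd4 and Lrp6 and the destruction complex genes Apc and Axin2. Counting any H3K27ac peak that overlaps the same annotated start within 1000 bp, 6 of 36 members with a placed start qualified (16.7%; background 60.6%), with Lgr4 added. No ligand, agonist or inhibitor was among them. FOXL2 overlapped a start in all 4 libraries at 2 of the 36 (5.56%; background 11.1%): the Lgr4 start and, at an internal RefSeq start, Wnt5b. In a second list of 50 other Wnt pathway genes (receptor kinases, Dishevelled proteins, kinases, TLE co-repressors, planar polarity proteins and others), 36 were named and 35 had a placed start, of which 22 were acetylated by that overlap (62.9%).

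**Figure D1:**
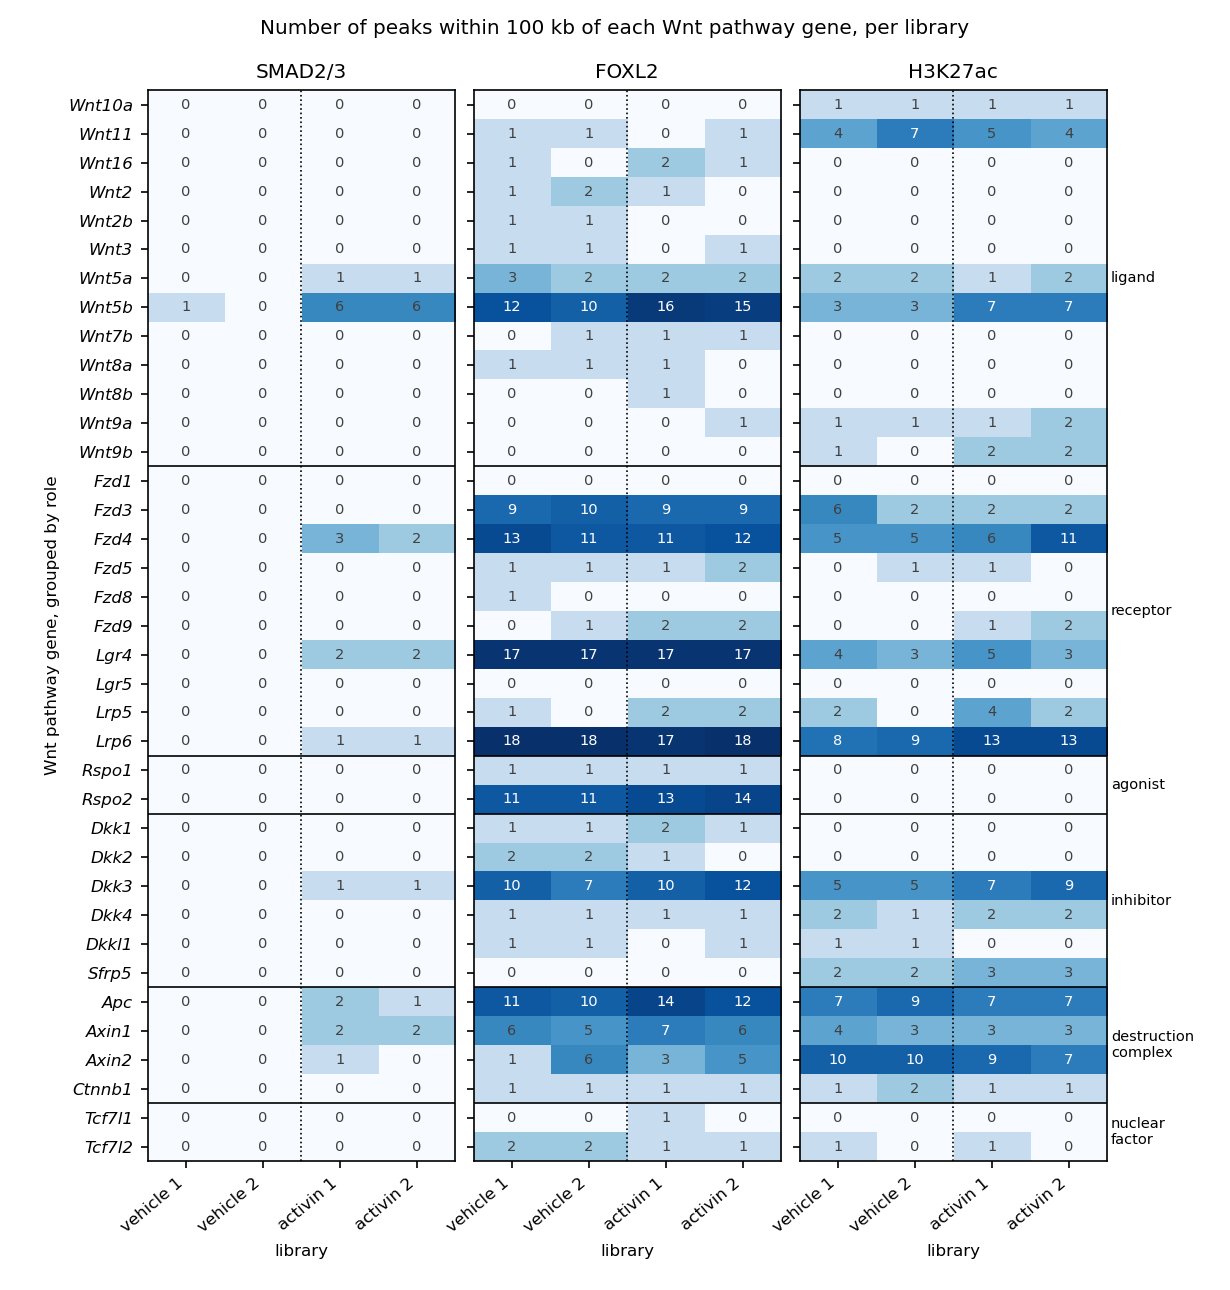
Number of peaks within 100000 bp of each of the 37 Wnt pathway genes (rows, grouped by role) in each of the 12 libraries (columns, 4 for each antibody, vehicle left and activin right of the dotted line). Darker blue stands for more peaks. SMAD2/3 peaks sit almost only in the activin columns and at 9 genes, Wnt5b with 6 in each activin library, whereas 17 genes had a FOXL2 region and 15 an H3K27ac region present in all 4 libraries.

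SMAD2/3 was found at Wnt pathway genes almost only after activin. The vehicle libraries held 1 and 0 SMAD2/3 peaks at members, and the activin libraries 19 and 16. The groups did not overlap: the vehicle mean was 0.5 ± 0.707 (SD, n = 2) and the activin mean 17.5 ± 2.12 (SD, n = 2), which is a difference of 17 peaks (exact two-sided permutation p = 0.33, the smallest value 2 against 2 libraries allow). Per 1000 peaks of the list, members held 1.65 and 0 peaks with vehicle, against 2.44 and 2.68 with activin. That difference was 1.73 (exact permutation p = 0.33), and it was 0.908 without vehicle replicate 2. With all 4 lists cut to the length of the shortest, no member peak was left: none of the 144 strongest SMAD2/3 peaks of any list lay at these genes.

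Merging the peaks of the 4 libraries where they shared at least 1 bp gave 19 SMAD2/3 regions at members. Of these, 15 were activin-only, meaning a peak in both activin and neither vehicle library (78.9%; background 54.1% of the SMAD2/3 regions at protein-coding genes). Vehicle-only regions numbered 0 (background 0.051%), and regions in all 4 libraries 0 (background 1.4%). In all, 16 regions had a peak in both activin libraries, and they lay at 8 of the 37 members (21.6%; background 11.1% of protein-coding genes). The members were the ligands Wnt5a and Wnt5b, the receptors Fzd4, Lgr4 and Lrp6, the inhibitor Dkk3, and Axin1 and Apc of the destruction complex. Within 50000 bp of the start, 5 of these genes and 9 activin-only regions were counted. A further 3 regions, at Apc, Axin2 and Fzd4, had a peak in activin replicate 1 alone.

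Most of the 16 regions were intronic (14), and 1 lay within 1000 bp of the deposited start. By the deposited annotation 7 belonged to the member itself, 8 lay in an intron of a neighbouring gene, and 1 was intergenic. The same shares over all protein-coding genes were not computed, so these locations cannot be called particular to Wnt pathway genes. Among the 7 was the Fzd4 promoter region, which lies upstream of the RefSeq gene. The deposited distance is to the nearest annotated transcript start, which for Axin1 and Lgr4 lay 57 and 58 kb inside the gene as RefSeq draws it. FOXL2 regions with a peak in each activin library overlapped 14 of the 16 (background 79.9% of activin SMAD2/3 regions at protein-coding genes). An H3K27ac region overlapped 15 (background 79.6%), and both overlapped 13 (background 62.8%). With 50% overlap required, FOXL2 overlapped 13 and H3K27ac 14. Between SMAD2/3 and FOXL2 summits the median distance was 33.5 bp in each activin replicate, against 39 and 40 bp over protein-coding genes, and 14 of 16 summits were within 100 bp in each replicate (71% and 70.6% over protein-coding genes).

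**Figure D2:**
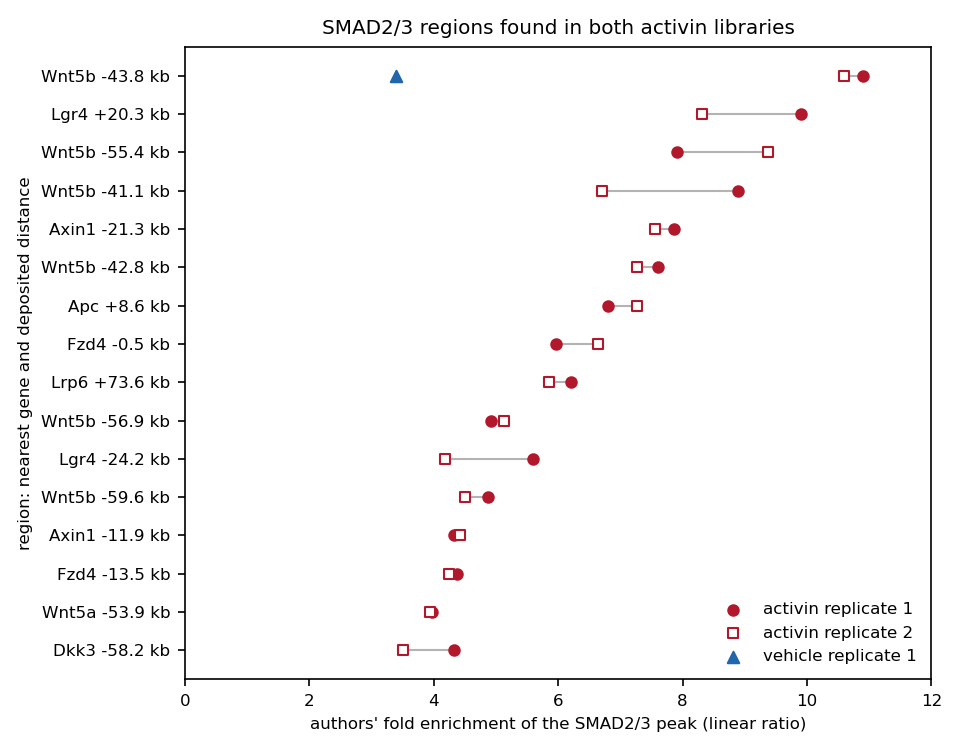
The authors' fold enrichment (x axis, linear ratio) of the 16 SMAD2/3 regions found in both activin libraries, named by gene and deposited distance to its start (y axis). Filled circles are activin replicate 1, open squares activin replicate 2, and the triangle is the only vehicle peak, of 3.4-fold. Folds ran from 3.5 to 10.9, and the Wnt5b region at −43.8 kb was highest in both activin libraries.

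Among the ligands, Wnt5b (ENSMUSG00000030170, chromosome 6), a ligand known mainly for β-catenin-independent signalling, held 6 of the 16 regions. Among the 1721 protein-coding genes with at least 1 such region the median was 1 region a gene. Of all 15486 protein-coding genes, 5 had at least 6 such regions (0.0323%), and 1 had more than Wnt5b. The 6 regions formed 2 groups upstream of the gene, both in introns of Erc1: 3 at −41.1, −42.8 and −43.8 kb and 3 at −55.4, −56.9 and −59.6 kb from the start. The strongest, chr6:119587793-119588415, had folds of 10.9 and 10.6 with activin and percentile ranks of 95.6 and 94.2, where 100 is the strongest peak of the list by the authors' −log10 q. It was also the only member region with a vehicle peak, of 3.4-fold and rank 13.9 in vehicle replicate 1. The region at −55.4 kb had activin folds of 7.91 and 9.37 and no vehicle peak. The other 4 had activin folds between 4.51 and 8.89.

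H3K27ac at Wnt5b ranked higher with activin in both groups of sites. The broad region at −42.4 kb, chr6:119583353-119590180, covers the first 3 SMAD2/3 regions and had folds of 6.05 and 6.37 with vehicle, against 12.1 and 11.4 with activin. Its places in the lists, counted from the strongest peak, were 2626 and 1623 with vehicle, against 10 and 16 with activin, so that it stood among the strongest peaks of both activin lists. The region at −56.2 kb ranked at 41.7 and 42.7 with vehicle, against 91.7 and 88.7 with activin, with folds of 2.98 and 2.97 against 5.73 and 5.43. In neither region did the groups overlap. At −59.5 kb an H3K27ac region was found only with activin, of 3.28 and 3.23-fold, and it overlaps the SMAD2/3 region at −59.6 kb. Wnt5b held 3 H3K27ac peaks in each vehicle library and 7 in each activin library.

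FOXL2 at these Wnt5b sites was mostly present before activin. The FOXL2 region under the SMAD2/3 region at −55.4 kb ranked at 99.5 and 99.7 with vehicle, against 98.8 and 98.4 with activin. The one at −43.8 kb ranked at 66.3 and 39.4 with vehicle, against 66.7 and 52.5 with activin, with overlapping groups. At −56.9 kb FOXL2 ranked higher with activin, at 77.3 and 78.9 against 87.3 and 89.6. At −59.6 kb it ranked lower, at 73.0 and 80.8 against 66.2 and 52.4, both without overlap. A FOXL2 region at −40.4 kb was found only with activin, with low ranks of 11.4 and 16.0. It is the one counted as overlapping the SMAD2/3 region at −41.1 kb, which only its peak in activin replicate 1 reached. No FOXL2 region found in both activin libraries overlapped the SMAD2/3 region at −42.8 kb. Away from SMAD2/3, a FOXL2 region at −76.7 kb ranked at 49.6 and 50.1 with vehicle, against 92.9 and 89.9 with activin, and one at 24.2 kb, in a Wnt5b intron, was found only with activin, of 7.53 and 9.29-fold.

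**Figure D3:**
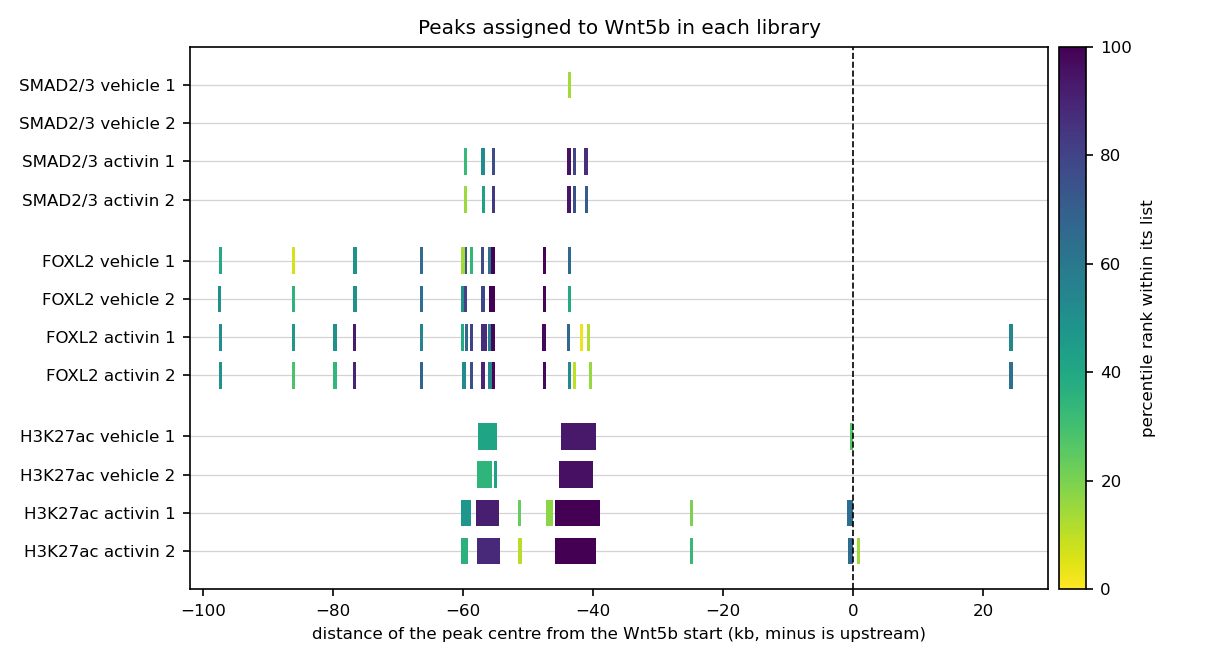
Peaks assigned to Wnt5b in each of the 12 libraries (rows), by distance of the peak centre from the Wnt5b start (x axis, kb); bar width is the peak width, drawn at no less than 0.5 kb, and colour is the percentile rank within the library's list, dark for strong. The SMAD2/3 peaks of the activin libraries fall in 2 groups, at −41.1 to −43.8 and at −55.4 to −59.6 kb, where H3K27ac bars are darker with activin than with vehicle.

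Wnt5a (ENSMUSG00000021994, chromosome 14), its paralog, had 1 activin SMAD2/3 region at −53.9 kb in an intron of Erc2, the weakest of the 16 by rank. Its folds were 3.97 and 3.94, its ranks 23.0 and 11.0. The H3K27ac region over it ranked at 48.7 and 45.0 with vehicle, against 51.3 and 40.2 with activin, so that the groups overlapped, unlike at Wnt5b. The other 11 ligands had no SMAD2/3 peak in any library. Of these, Wnt11 had 4 to 7 H3K27ac peaks a library, including a vehicle-only region at −48.3 kb (3.35 and 2.97-fold). Wnt2b had a vehicle-only FOXL2 region at −6.86 kb, of 3.73 and 4.43-fold.

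Among the receptors, Lgr4 (ENSMUSG00000050199, chromosome 2), a receptor for R-spondins, had 2 activin SMAD2/3 regions, both in its own introns. The stronger, chr2:109995659-109996037 at 20.3 kb from the nearest annotated start and 78.2 kb from the RefSeq start, had folds of 9.9 and 8.31 and ranks of 95.4 and 92.8. FOXL2 there ranked at 99.2 and 99.6 with vehicle, against 98.1 and 98.7 with activin. An H3K27ac region at 19.5 kb, whose activin peaks overlapped the SMAD2/3 region, ranked at 47.7 and 46.9 with activin. With vehicle it had a peak in replicate 1 alone, at rank 17.0. The constant H3K27ac region at 20.7 kb ranked at 45.8 and 6.8 with vehicle, against 56.9 and 66.2 with activin. Only its peak in vehicle replicate 2 reached the SMAD2/3 region, and its activin peaks lay beside it. The second, at −24.2 kb (33.7 kb inside the RefSeq gene), had SMAD2/3 folds of 5.6 and 4.18. At this site both other targets ranked higher with activin without overlap: FOXL2 at 38.1 and 51.7 against 88.0 and 91.9, and H3K27ac at 41.4 and 35.4 against 67.0 and 59.7. Lgr4 also held the constant FOXL2 region with the largest rank difference of any member, at −10.2 kb with 51.7 and 26.0 against 88.9 and 89.0, which no activin SMAD2/3 region overlapped. The number of FOXL2 peaks at Lgr4 was 17 in each of the 4 libraries. One FOXL2 region at 27 kb was vehicle-only, of 4.31 and 4.23-fold.

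Fzd4 (ENSMUSG00000049791, chromosome 7), a Frizzled receptor, held the only SMAD2/3 region within 1000 bp of a member's start, chr7:89403779-89403992, at −0.481 kb from the start, upstream of the promoter window printed above. Its folds were 5.97 and 6.64 with activin. H3K27ac covered this promoter in every library at ranks of 96.5 and 96.2 with vehicle, against 96.5 and 95.1 with activin, with overlapping groups. FOXL2 had weak peaks there in 3 libraries (ranks 32.1 and 50.8 with vehicle, 37.9 in activin replicate 1). The second Fzd4 region, at −13.5 kb in an intron of Tmem135, had SMAD2/3 folds of 4.37 and 4.25. H3K27ac over it ranked at 96.3 and 94.4 with vehicle, against 93.6 and 90.6 with activin, the only constant H3K27ac region at a member under SMAD2/3 that ranked lower with activin in both libraries.

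Lrp6 (ENSMUSG00000030201, chromosome 6), the Wnt co-receptor, had 1 activin SMAD2/3 region, in its intron at 73.6 kb, of 6.21 and 5.85-fold. FOXL2 at this site ranked at 76.3 and 81.3 with vehicle, against 97.7 and 98.2 with activin, and H3K27ac was found there only with activin, of 2.89 and 3.64-fold. At this intronic site SMAD2/3 and H3K27ac were thus called only with activin, and FOXL2 was called in every library. A second H3K27ac region of Lrp6, at 34.5 kb, ranked at 38.5 and 21.2 against 60.9 and 59.2 without SMAD2/3, and a FOXL2 region at 10.2 kb was vehicle-only (3.91 and 4.62-fold). Fzd9, whose nearest peaks lie in introns of Baz1b, had the activin-only H3K27ac region of highest rank (3.35 and 3.1-fold, at 17.1 kb) beside an activin-only FOXL2 region at 16.7 kb (10.4 and 7.67-fold), with no SMAD2/3 peak. Fzd3 held the FOXL2 region with the largest fall in rank, at 15.9 kb, from 70.2 and 71.9 with vehicle to 22.0 and 49.5 with activin.

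Neither R-spondin gene, the ligands of the LGR receptors, had a SMAD2/3 or an H3K27ac peak within 100000 bp in any library. Rspo2 nevertheless held 11 and 11 FOXL2 peaks with vehicle, against 13 and 14 with activin. Rspo1 had 1 constant FOXL2 region, at 3.12 kb, of 49.2 and 56.4-fold with vehicle, against 34.7 and 37.7-fold with activin. Both were singled out after their values were seen.

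Among the inhibitors, only Dkk3 (ENSMUSG00000030772, chromosome 7), a divergent member of the Dickkopf family, had an activin SMAD2/3 region, intergenic at −58.2 kb. Its folds were 4.32 and 3.5, with ranks of 66.6 and 24.6. FOXL2 there ranked at 68.1 and 60.4 with vehicle, against 84.9 and 84.9 with activin, and the H3K27ac region over it at 95.9 and 95.0 against 95.2 and 96.2, with overlapping groups. Dkk1 and Dkk2, inhibitors that bind LRP5 and LRP6, had 0 to 2 FOXL2 peaks a library and no H3K27ac peak. Dkkl1 held the vehicle-only H3K27ac region of highest rank, at 7.12 kb within Ccdc155 (3.1-fold in both vehicle libraries).

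In the destruction complex, Axin1 (ENSMUSG00000024182, chromosome 17), the scaffold, had 2 activin SMAD2/3 regions in its own introns. The stronger, chr17:26166575-26167098, at −21.3 kb from the nearest annotated start and 35.6 kb from the RefSeq start, had folds of 7.86 and 7.56 and ranks of 87.0 and 88.5. FOXL2 there ranked at 8.0 and 14.2 with vehicle, against 55.0 and 55.9 with activin. H3K27ac over it ranked at 68.2 and 65.5 with vehicle, against 93.5 and 93.3 with activin. The second Axin1 region, at −11.9 kb, had SMAD2/3 folds of 4.32 and 4.42 on a FOXL2 region that ranked at 98.6 and 98.7 with vehicle, against 99.5 and 99.4 with activin, and it was the only one of the 16 without H3K27ac in both activin libraries. The 2 sites differed in this way: at the first, FOXL2 was weak before activin and acetylation ranked high after it, and at the second, FOXL2 was strong throughout without acetylation.

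Apc (ENSMUSG00000005871, chromosome 18), the tumour suppressor of the complex, had 1 activin SMAD2/3 region in its intron at 8.55 kb, of 6.81 and 7.27-fold. FOXL2 there ranked at 91.4 and 93.5 with vehicle, against 98.1 and 97.9 with activin, and H3K27ac at 52.5 and 46.0 against 65.2 and 56.1, neither with overlap. Apc also held the activin-only FOXL2 region of highest rank, at 10.1 kb (7.01 and 10.5-fold), and a vehicle-only H3K27ac region at 51.6 kb (3.56 and 3.83-fold). Axin2, a feedback inhibitor that is a classical β-catenin target, had 7 to 10 H3K27ac peaks a library and a SMAD2/3 peak in activin replicate 1 alone. Ctnnb1 had no SMAD2/3 peak and 1 FOXL2 peak in each library. Of the nuclear factors, Tcf7l1 had a single FOXL2 peak in 1 library and Tcf7l2 had 1 or 2 FOXL2 peaks a library, with no SMAD2/3 peak at either.

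Over all members, FOXL2 peaks numbered 129 and 125 with vehicle, against 138 and 139 with activin. The difference was 11.5 peaks (exact permutation p = 0.33), without overlap, and −0.0465 per 1000 peaks of the list (exact permutation p = 0.33). The difference per 1000 was −0.0134 without activin replicate 1, −0.0796 without activin replicate 2 and −0.0147 within 50000 bp. With lists of equal length it was 0.00596, and the difference in peaks 0.5 (exact permutation p = 1 for both). The 173 merged FOXL2 regions held 91 in all 4 libraries (52.6%; background 47%), 11 activin-only (6.36%; background 8.32%) and 4 vehicle-only (2.31%; background 3.36%). Without vehicle replicate 1, activin replicate 1 or activin replicate 2 there were 21, 21 and 24 activin-only regions, and 9 to 13 vehicle-only regions without any 1 of the 4 libraries.

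H3K27ac peaks at members numbered 70 and 67 with vehicle, against 82 and 83 with activin, a difference of 14 peaks without overlap (exact permutation p = 0.33), although the H3K27ac lists as a whole did not separate by treatment. The difference was 4.5 peaks with −log10 q of at least 5 and 8.5 peaks within 50000 bp. Per 1000 peaks of the list the values were 1.7 and 1.66 with vehicle, against 1.96 and 2.13 with activin, a difference of 0.366 (exact permutation p = 0.33). Members with more peaks included Wnt5b, Lrp6 (8 and 9 against 13 and 13), Dkk3 (5 and 5 against 7 and 9) and Fzd4 (5 and 5 against 6 and 11). Others had fewer, such as Axin2 (10 and 10 against 9 and 7). One region can hold several peaks, so more peaks need not be more regions. The Fzd4 region at 9.46 kb was 1 peak in each vehicle library and 5 in activin replicate 2. Its ranks were 85.6 and 86.6 with vehicle, against 60.9 and 74.3 with activin. The 99 merged regions held 45 in all 4 libraries (45.5%; background 51.4%), 11 activin-only (11.1%; background 5.33%) and 5 vehicle-only (5.05%; background 5.35%). The activin-only count was 19 and 21 without activin replicate 1 and 2, and 6 with peaks of −log10 q of at least 5 or within 50000 bp. The vehicle-only count was 10, 12 and 9 without vehicle replicate 1, vehicle replicate 2 and activin replicate 1.

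At regions present in all 4 libraries, presence cannot show a difference, and the ranks within each list were set side by side. The lists differ in length, so a rank difference describes the place of a region in its list and is not a measured change in occupancy. Of 91 constant FOXL2 regions at members, 23 ranked higher in both activin than in both vehicle libraries (25.3%; background 28.9%) and 26 ranked lower (28.6%; background 28.5%). Of 45 constant H3K27ac regions, 17 ranked higher (37.8%; background 25.9%) and 10 lower (22.2%; background 28.7%). Leaving out 1 library gave 34 to 44 higher FOXL2 regions, above 1.5 times the full count without vehicle replicate 1 (38), vehicle replicate 2 (41) or activin replicate 2 (44). It gave 26 higher H3K27ac regions without activin replicate 2 and 18 lower ones without activin replicate 1.

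The constant regions were also split by SMAD2/3, as counts without a test of the difference. Of the constant FOXL2 regions overlapping an activin SMAD2/3 region, 7 of 13 ranked higher and 4 lower, against 16 and 22 of the 78 without one (20.5% and 28.2%). For H3K27ac, 7 of 11 ranked higher and 1 lower, against 10 and 9 of 34 (29.4% and 26.5%). Over all protein-coding genes, 52.1% of constant FOXL2 regions under SMAD2/3 ranked higher and 20.1% lower, against 27.5% and 29% of those without SMAD2/3. For H3K27ac, 67.4% under SMAD2/3 ranked higher and 14% lower, against 21.7% and 30.1%. One of the 11 was a region 10.2 kb from the Dkk4 start whose SMAD2/3 region the tables assign to another gene. Another was the Lgr4 region at 20.7 kb, which ranked higher. It met SMAD2/3 only through its peak in vehicle replicate 2.

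**Figure D4:**
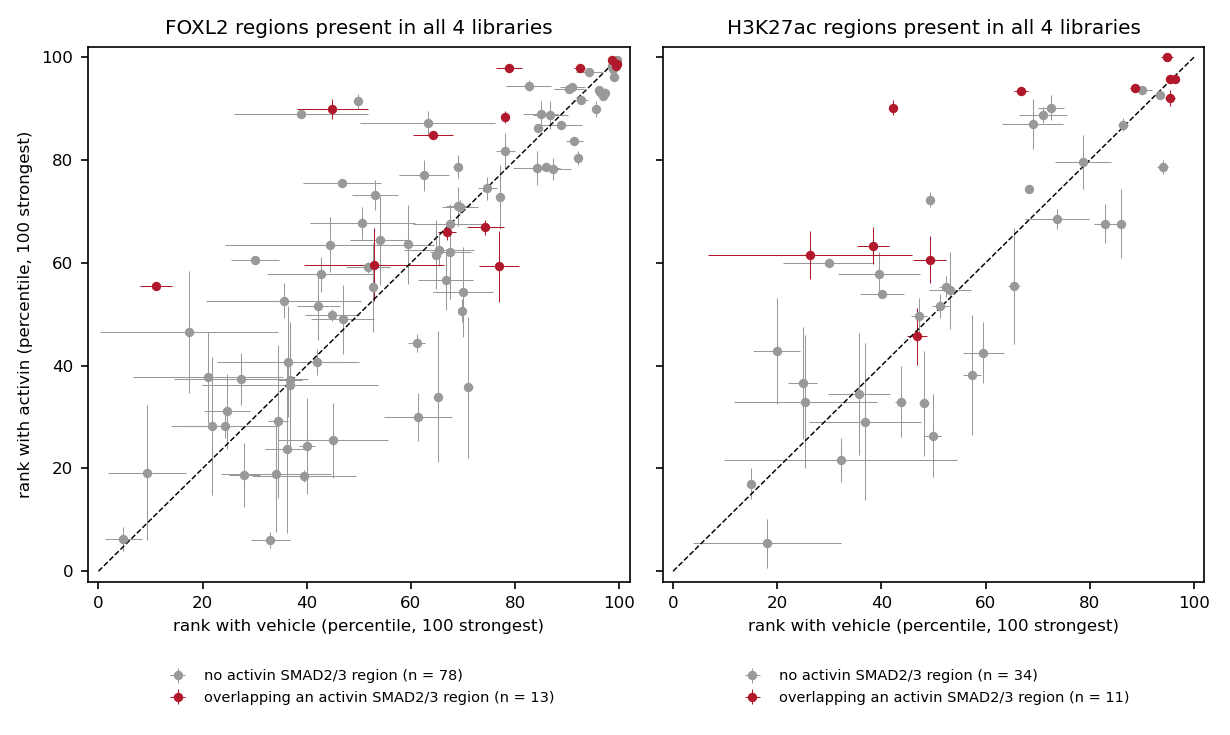
Mean percentile rank with vehicle (x axis) and with activin (y axis) of the FOXL2 (left, 91) and H3K27ac (right, 45) regions at Wnt pathway genes that were present in all 4 libraries; bars run between the replicates, red points overlap an activin SMAD2/3 region, and the dashed line marks equal ranks. Red points lie above the line for 7 of 13 FOXL2 and 7 of 11 H3K27ac regions without overlap of the replicates.

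In the second list of pathway genes, 7 of the 36 named genes had an activin SMAD2/3 region (19.4%, background 11.1%). They held 10 such regions in all, of which 9 were activin-only, against 2123 of 2337 over protein-coding genes. By rank the leading 5 lay at Daam1, a planar polarity effector (−22.1 kb, activin folds of 9.58 and 10.8, and 5.86-fold in vehicle replicate 1), at the TLE co-repressor gene Tle4 (11.3 kb, 11.8 and 9.86-fold, and 10.7 kb, 7.56 and 5.61-fold), at Znrf3, a ubiquitin ligase that removes Frizzled (−50.3 kb, 7.99 and 6.13-fold), and at Tle3 (19.9 kb, 5.31 and 4.18-fold).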

How the data were processed

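Each of 12 ChIP-seq libraries has a deposited peak list and annotation table, from 3 antibodies with 2 libraries for each treatment. The submitters' processing notes name Bowtie2, MACS2 and HOMER and the builds GRCm38 and mm10, without versions. Peaks were called per library, per the file headers and peak names, so replicates could be compared. The authors deposited for each peak a score, a fold enrichment (a linear ratio), and −log10 of q and p; these are the authors' values and describe a peak within its own list. The deposited HOMER tables give other values used here, the nearest gene and the distance to its start. Reads per library are unknown, and the Protein-A control was not analysed here.

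With Python 3.11.15 and pandas 2.3.3, member peaks within 100000 bp were counted per library and compared by an exact permutation test (two-sided, 6 labellings, smallest p 0.33). Peaks of the 4 libraries of an antibody sharing at least 1 bp were merged into regions, classed by treatment, ranked by −log10 q within each list and overlapped between antibodies. Starts were placed from the deposited distances and RefSeq (GRCm38.p6), and the promoter sequences are RefSeq's; 23 of 37 members had one. The counting code was tested on simulated peaks. Members and lists were chosen with earlier results of these data known. Genes described one by one are those with an activin SMAD2/3 region, the 3 activin-only and 3 vehicle-only regions of highest rank for each antibody, and the 5 constant FOXL2 and 5 constant H3K27ac regions with the largest rank differences. Alternatives were a −log10 q of at least 5, 50000 bp, 50% overlap, ranks by fold, lists of equal length, a replicate block and each library left out. The overlap rule for acetylated starts was added after the data were seen. One marker of the cell type list is not reported here.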

Additional observations from a re-analysis of the deposited data

How the results depend on the processing

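Of 194 values recomputed under the alternatives for 23 results, 163 kept their direction. Counts of regions or genes stayed within 1.5 times, and differences in peak number kept their sign. Several of these differences moved in size, that of FOXL2 from 11.5 to 0.5 peaks with lists of equal length. Their p-values could not fall below 0.33, so their side of a significance threshold was fixed in advance. Ranking by fold and requiring 50% overlap moved none. No peak was assigned to Tcf7, so adding it could change no value. The replicate block likewise leaves a difference of means unchanged by construction. The values of these 2 alternatives are part of the 163 and are no check of the results. With lists of equal length the SMAD2/3 difference was 0 peaks and 0 per 1000 (exact permutation p = 1). The FOXL2 difference there was 0.5 peaks, and per 1000 it changed sign to 0.00596 (exact permutation p = 1 for both). The H3K27ac difference was 4.5 peaks with −log10 q of at least 5 and 8.5 within 50000 bp, and there 0.225 per 1000. The SMAD2/3 difference was 11 peaks within 50000 bp. Per 1000 it was 0.846 within 50000 bp and 2.8 with −log10 q of at least 5, and 0.908 to 2.56 when 1 library was left out. For FOXL2 per 1000, leaving out 1 library gave -0.0796 to -0.0134, and 50000 bp gave -0.0147. Within 50000 bp there were 9 SMAD2/3 activin-only regions, 5 genes with one in both activin libraries, 8 regions with FOXL2 and 9 with H3K27ac, and 6 H3K27ac activin-only regions. With −log10 q of at least 5, H3K27ac had 6 activin-only, 2 vehicle-only and 18 constant regions, of which 8 ranked higher and 5 lower. Leaving out 1 library in turn gave 0 to 1 constant SMAD2/3 regions, 14 to 24 activin-only and 9 to 13 vehicle-only FOXL2 regions, and 11 to 21 activin-only and 5 to 12 vehicle-only H3K27ac regions. It gave 34 to 44 higher-ranked FOXL2 regions, and 22 to 26 higher- and 10 to 18 lower-ranked H3K27ac regions. With fewer libraries to satisfy, more regions meet each class.

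The replicate block, a paired difference within replicate number, left the differences at 17, 11.5 and 14 peaks for SMAD2/3, FOXL2 and H3K27ac and at 1.73, -0.0465 and 0.366 per 1000 (exact sign-flip p = 0.5, the smallest possible). The deviations of same-numbered libraries correlated at -0.044, 0.132 and -0.028 over 132, 58444 and 24356 regions found in all 4 libraries. The labels state no pairing, and these correlations cannot show whether same-numbered samples shared a culture.

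Depth is unknown, so a peak missing from a list was not called there, which differs from being absent, and longer lists can come from more reads. The nearest gene is a position and need not be the gene a region acts on.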
